A study of Mus musculus with 20 samples.

Results

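The Klf4 and Klf5 loci were followed through the adipocyte differentiation of 3T3-L1, a mouse preadipocyte cell line, in 19 peak lists. All peaks were taken that fell in 2 windows of genome build mm9, chr4:55450000-55650000 (200 kb, named for Klf4) and chr14:99600000-100200000 (600 kb, named for Klf5 and its distal sites). They numbered 165 of the 284878 peaks in the series, 47 in the Klf4 window and 118 in the Klf5 window. Cells at day 0 were 2 days past confluence and not yet induced. Induction added dexamethasone (a glucocorticoid), insulin, 3-isobutyl-1-methylxanthine (which raises cyclic AMP) and fetal bovine serum, so the 2 hours, 4 hours and day 1 samples had been in this cocktail for that time. From day 2 the medium held serum and insulin, and later serum alone, which covers day 6. DNase I hypersensitive site sequencing (DHS-seq), which marks open chromatin through short fragments cut by DNase I at both ends, was done on day 0, at 2 hours and 4 hours, and on day 1, day 2 and day 6. Factor binding was mapped by chromatin immunoprecipitation sequencing (ChIP-seq). C/EBPbeta was profiled on day 0, at 2 hours, at 4 hours and on day 2, and C/EBPdelta at 4 hours and on day 0. Stat5a, GR and RXR were profiled at 4 hours alone, PPARgamma on day 6 and day 2, and RNA polymerase II, abbreviated RNA Pol II, at 4 hours and on day 0.

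Klf4 and Klf5 encode zinc-finger transcription factors of the Krüppel-like family, which bind GC-rich and CACCC-type elements. Both are known as early factors of adipogenesis in 3T3-L1 cells: KLF4 has been described as an activator of the gene of C/EBPbeta, and KLF5 as a target of C/EBPbeta and C/EBPdelta that acts with them on the promoter of Pparg, the gene of PPARgamma. C/EBPbeta and C/EBPdelta are related leucine-zipper factors, GR is the glucocorticoid receptor, Stat5a is a signal-activated factor, and RXR pairs with nuclear receptors such as PPARgamma. In RefSeq's gene order the nearest protein-coding neighbours are Rad23b and Actl7b for Klf4, and Pibf1 and Klf12 for Klf5. Gene models of build mm9 were not used here, so no peak is assigned to a promoter, exon or intron.

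The promoter of Klf4 is shown because RNA Pol II was listed in this window on day 0. RefSeq's table (build GRCm38.p6, whose positions do not match the mm9 positions of the peaks) holds an entry for 1 of the 2 genes, Klf4, at chr4:55532426-55532725 on the minus strand. The run is 300 bases, from 250 before the start to 50 after it, 5′ to 3′, and capitals mark the GC box CCGCCC on either strand.
Klf4: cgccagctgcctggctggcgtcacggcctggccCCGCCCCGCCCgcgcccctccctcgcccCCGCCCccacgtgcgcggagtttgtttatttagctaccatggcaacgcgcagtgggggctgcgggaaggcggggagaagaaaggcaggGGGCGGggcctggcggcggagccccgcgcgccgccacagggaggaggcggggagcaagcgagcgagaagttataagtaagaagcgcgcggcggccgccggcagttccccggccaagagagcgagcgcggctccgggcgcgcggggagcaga

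This stretch had a GC content of 74.3%, against a median of 52.7% over the 32851 promoters of the table. It held 4 matches to CCGCCC, of which the first and the next overlap by 1 base. A match to that motif was present in 35.7% of all promoters. Neither C/EBP motif searched (TTGCNNAA, in 10.8% of promoters, and TTACNNAA, in 9.18%) was in these letters on either strand. The same held for the STAT motif TTCNNNGAA (8.30% of promoters), the glucocorticoid receptor pair ACANNNTGT (6.85%) and the KLF element CACCC (57.5%).

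Every group held 1 library, so differences between times carry no replicate error and were not tested. The lists give no score or read count, the depth is unknown, and a peak missing from a list cannot be told apart from one under the caller's threshold. List length stands in for depth here: the DHS lists ran from 9055 peaks (2 hours) to 35389 (day 1), and the ChIP-seq lists from 2076 (RXR) to 29957 (C/EBPbeta at 4 hours). "Gained" and "lost" mean listed at 4 hours and not on day 0, and the reverse. Peaks that overlapped by at least 1 bp were merged into regions, which gave 9 regions in the Klf4 window and 32 in the Klf5 window when all 19 lists were merged. Regions are placed below by the distance of their middle from the region with the widest RNA Pol II peak of the window, positive towards higher coordinates. That region was chr4:55545053-55546179 in the Klf4 window and chr14:99698281-99700768 in the Klf5 window.

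The RNA Pol II lists differed between the 2 loci. The Klf4 window held 0 RNA Pol II peaks at 4 hours and 2 on day 0, whereas the Klf5 window held 4 at 4 hours and 1 on day 0. Both Klf4 regions were therefore lost, and 4 of the 5 Klf5 regions were gained and the other 1 was lost. Most of the gained regions were close neighbours in a cluster described below, so they are not separate places. Over the genome, 35.2% of 18710 RNA Pol II regions were lost and 23.3% were gained between the same lists, which held 12558 peaks at 4 hours and 14784 on day 0. Of consecutive genome stretches (tiles) of 200 kb, 47.6% held no RNA Pol II peak at 4 hours and 34.1% at least 2 on day 0. Of tiles of 600 kb, 31.2% held at least 4 peaks at 4 hours and 86.2% at least 1 on day 0. None of these counts was thus rare by itself, and their combination was not counted over tiles. With only the wider peaks of each list, 1 gained region was left in the Klf5 window and 1 lost region in the Klf4 window. At equal list length by width, 4 gained regions stayed in the Klf5 window and 2 lost regions in the Klf4 window.

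In the Klf4 window, the wider RNA Pol II peak of day 0 (528 bp, chr4:55545053-55545580) had 52.1% of its list narrower still. It lay over an open site that was in the DHS lists of 4 hours, day 1 and day 6 and not in that of day 0. No factor peak was listed in that region at any time. The other day 0 peak (351 bp, chr4:55547228-55547578, with 23.5% of its list narrower) lay at 1.9 kb, entirely inside a C/EBPbeta peak of 690 bp on day 0. That region kept a C/EBPbeta peak at every time profiled, 716 bp wide at 2 hours, 580 bp at 4 hours and 594 bp on day 2, and had C/EBPdelta at 4 hours (456 bp). It was in none of the 6 DHS lists.

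In the Klf5 window, 3 of the 4 RNA Pol II peaks of 4 hours fell within a cluster of 3 neighbouring regions, at -2.5 kb (268 bp), -1.8 kb (404 bp) and 0.0 kb (759 bp). The widest of them, at chr14:99699645-99700403, ranked 3179th by width among the 12558 peaks of its list. The peaks of 268 bp and 404 bp were narrow, with 11.2% and 26.7% of that list narrower still. None of the 3 regions held RNA Pol II on day 0. Beside them, C/EBPbeta was listed at 2 places of the cluster at 2 hours, 4 hours and day 2 and at neither on day 0. C/EBPdelta of 4 hours was at the same 2 places, with widths of 609 bp and 630 bp. The region at -1.8 kb (chr14:99697176-99698178) had a peak in all 6 DHS lists, as 1 of 17 regions of this window and 0 of 6 of the Klf4 window with the DHS lists merged alone, against 8.76% of 46760 DHS regions over the genome. Its DHS peak was 607 bp wide on day 0, 559 bp at 2 hours, 990 bp at 4 hours, 761 bp on day 1, 953 bp on day 2 and 518 bp on day 6. The adjoining region at 0.0 kb was in the DHS lists of 4 hours (1201 bp and 542 bp) and day 2 (1334 bp and 412 bp), and not in that of day 1, the longest DHS list.

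**Figure D1:**
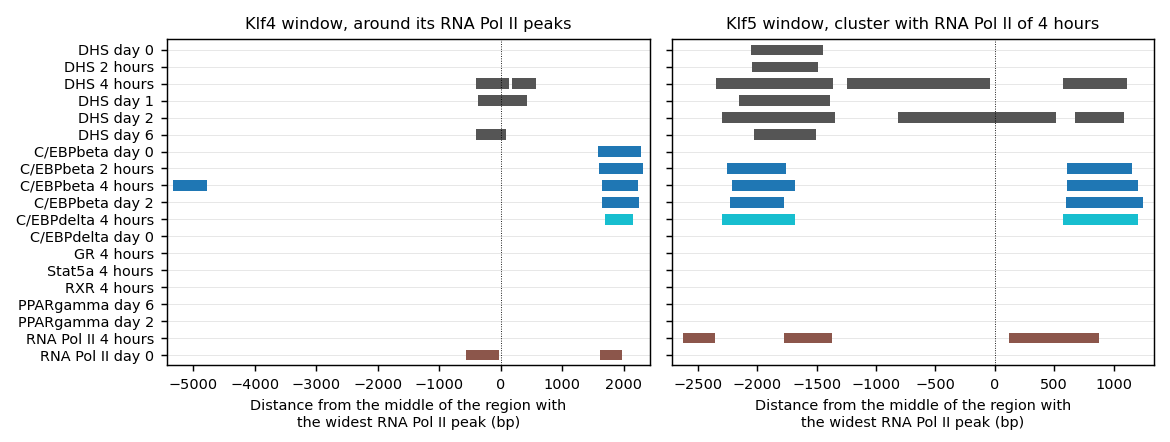
Peaks drawn to scale around the RNA Pol II peaks of the Klf4 window (left) and in the RNA Pol II cluster of the Klf5 window (right), with 1 row per list and the distance in bp from the middle of the region with the widest RNA Pol II peak. RNA Pol II is drawn on day 0 alone on the left (2 peaks) and at 4 hours alone on the right (3 peaks), and the Klf5 cluster holds the DHS peak present at all 6 times.

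Open chromatin was listed most often at 4 hours in the Klf4 window and on day 1 in the Klf5 window. The Klf4 window held 1 DHS peak on day 0, 2 at 2 hours, 7 at 4 hours, 4 on day 1, 2 on day 2 and 1 on day 6. The Klf5 window held 2, 3, 12, 14, 9 and 2 peaks at the same times. Median counts over 10254 genome tiles of 200 kb were 0, 0, 2, 2, 1 and 1 peaks, and over 4087 tiles of 600 kb they were 1, 1, 6, 7, 4 and 2. In the Klf5 window the count was above the median at every time but day 6, where both were 2. Such counts were common, however. As many peaks or more were in 46.9% of tiles of 600 kb on day 0 and 32.5% at 2 hours. The shares were 29.4% at 4 hours, 27.7% on day 1 and 30.5% on day 2. For the Klf4 window, 15.8% of tiles of 200 kb held as many or more at 4 hours and 40.4% on day 1. In the Klf4 window day 1 had fewer peaks (4) than 4 hours (7), although the day 1 list was longer.

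Between 4 hours and day 0, 6 of 7 DHS regions were gained in the Klf4 window and 10 of 12 in the Klf5 window, against 69.6% of 32319 regions over the genome. No region was lost in either window, against 1.92%. Of the regions in the 4 hours and day 6 lists, 6 of 7 and 10 of 12 were listed at 4 hours and not on day 6, against 64.9% of 33204. With the compared lists shortened to equal length by width, 1 gained DHS region was left in the Klf4 window and 3 in the Klf5 window. Regions at 4 hours and not on day 6 numbered 2 and 5 on the same footing. Shortened lists leave fewer peaks by construction, so these lower counts decide nothing by themselves. The 4 hours list held 31751 peaks, against 9989 on day 0 and 11936 on day 6. Both the gains since day 0 and the absences on day 6 cannot be told apart from this difference in length.

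The DHS list of day 0 held 1 region in the Klf4 window and 2 in the Klf5 window, and 45.7% of tiles of 200 kb and 46.9% of tiles of 600 kb held as many peaks or more. The only day 0 DHS peak of the Klf4 window (616 bp) lay at -80.7 kb, in a region listed as open through day 2 and not on day 6. In the Klf5 window the day 0 peaks lay at -1.8 kb and at 445.2 kb. Sites first listed at 2 hours were 1 in each window, at 8.8 kb in the Klf4 window and at 324.4 kb in the Klf5 window. When regions of all 19 lists were sorted by the first DHS list that held them, the 6 of the Klf4 window had 1 on day 0, 1 at 2 hours and 4 at 4 hours. The 16 of the Klf5 window had 2 on day 0, 1 at 2 hours, 8 at 4 hours and 5 on day 1. Over the 45728 such regions of the genome the shares were 21.2% on day 0, 7.74% at 2 hours, 40.0% at 4 hours, 21.0% on day 1, 9.03% on day 2 and 0.995% on day 6. The times with the most first listings, 4 hours and day 1 in the Klf5 window, were those of the longest lists. The day 6 list held 1 region in the Klf4 window (0.0 kb, 496 bp) and 2 in the Klf5 window (-1.8 kb, and 172.0 kb with 468 bp).

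**Figure D2:**
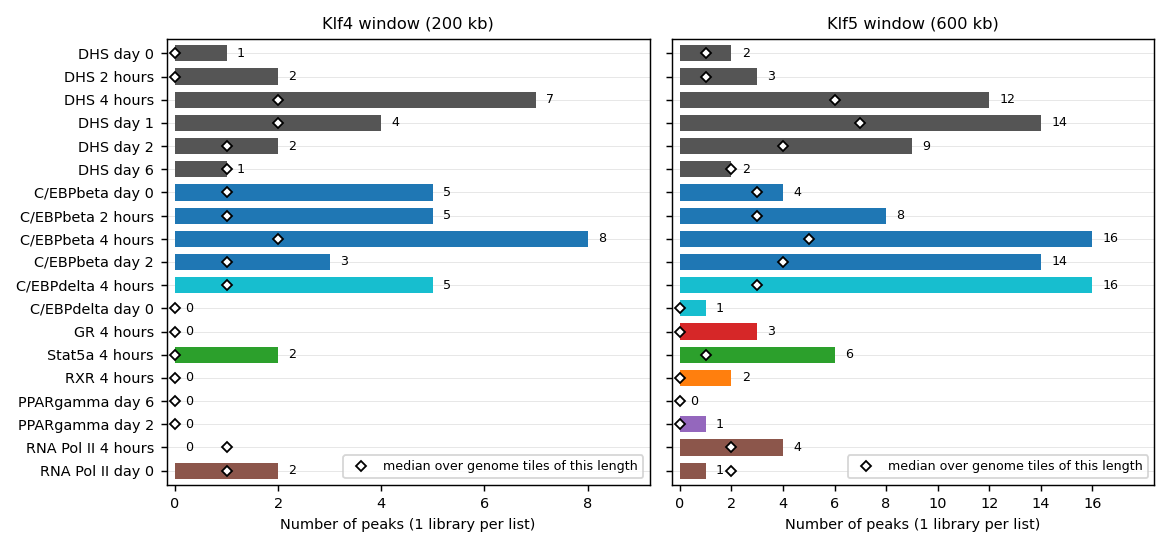
Number of peaks in the Klf4 window (left) and the Klf5 window (right) in each of the 19 lists, 1 library per list, with the median over genome tiles of the same length as diamonds. C/EBPbeta reaches 8 and 16 peaks at 4 hours, and RNA Pol II has 0 peaks at 4 hours against 2 on day 0 in the Klf4 window and 4 against 1 in the Klf5 window.

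C/EBPbeta was listed before induction in both windows, more densely per kb in the Klf4 window, and had more peaks at 4 hours in both. The Klf4 window held 5 C/EBPbeta peaks on day 0, 5 at 2 hours, 8 at 4 hours and 3 on day 2. The Klf5 window held 4, 8, 16 and 14 at the same times. As many peaks or more were in 14.8%, 13.5%, 10.9% and 33.0% of tiles of 200 kb. For tiles of 600 kb the shares were 49.3%, 26.4%, 14.9% and 9.37%. The summed width of the C/EBPbeta peaks was 3258 bp, 3291 bp, 6098 bp and 1523 bp in the Klf4 window. In the Klf5 window it was 2431 bp, 5822 bp, 10993 bp and 7303 bp. The summed width of day 2 thus lay below that of day 0 in the Klf4 window and above it in the Klf5 window. The day 2 list (21486 peaks) and the day 0 list (20471 peaks) were of similar length. Peaks of day 2 were narrower over the whole list, with a median of 525 bp against 576 bp on day 0.

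Between 4 hours and day 0, 4 of 8 C/EBPbeta regions were gained in the Klf4 window and 12 of 16 in the Klf5 window, against 42.4% of 35444 over the genome. None was lost in either window, against 15.8%. Of the regions in the 4 hours and day 2 lists, 6 of 8 in the Klf4 window and 6 of 20 in the Klf5 window were listed at 4 hours and not on day 2, against 40.6% of 35928. The 2 hours peaks overlapped a 4 hours peak in 5 of 5 cases in the Klf4 window and in 7 of 8 in the Klf5 window, against 90.1%. At equal list length by width, 3 regions were gained in the Klf4 window and 6 in the Klf5 window. Regions at 4 hours and not on day 2 numbered 4 and 2 on that footing.

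Sites with C/EBPbeta at all 4 times numbered 2 of 8 in the Klf4 window (-80.7 kb and 1.9 kb) and 3 of 20 in the Klf5 window (172.0 kb, 324.4 kb and 461.2 kb), against 22.8% of 40774 over the genome. C/EBPbeta at 2 hours, 4 hours and day 2 and not on day 0 was found at 0 of 8 regions of the Klf4 window and 4 of 20 of the Klf5 window, against 6.49%. The 4 were both C/EBPbeta places of the RNA Pol II cluster, the region at 83.0 kb and the region at 445.2 kb. Of the 5 C/EBPbeta peaks of day 0 in the Klf4 window, 1 overlapped a DHS peak of day 0, and of the 4 in the Klf5 window 0 did, against 15.5% of 20471 over the genome. At 4 hours, 5 of 8 and 8 of 16 C/EBPbeta peaks overlapped a DHS peak of that time, against 45.6% of 29957.

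C/EBPdelta was nearly absent from the lists before induction. The Klf4 window held 5 peaks at 4 hours and 0 on day 0, and the Klf5 window 16 at 4 hours and 1 on day 0, in lists of 18327 and 2581 peaks. Of tiles of 200 kb, 12.3% held at least 5 at 4 hours and 81.9% none on day 0. Of tiles of 600 kb, 4.48% held at least 16 at 4 hours and 34.0% at least 1 on day 0. Gained regions were 5 of 5 in the Klf4 window and 15 of 16 in the Klf5 window, against 86.3% of 18843 over the genome. At equal list length by width these numbered 0 and 3, but that cut leaves fewer peaks by construction. With lists of 18327 and 2581 peaks, the gains cannot be told apart from the greater length of the 4 hours list. All 5 C/EBPdelta peaks of 4 hours in the Klf4 window overlapped a C/EBPbeta peak of that time, as did 11 of 16 in the Klf5 window, against 83.6%. The region at 130.3 kb in the Klf5 window (chr14:99829488-99830124) held C/EBPdelta at 4 hours (375 bp) and on day 0 (524 bp) with no C/EBPbeta at any time. It was in the DHS lists of 4 hours, day 1 and day 2. Over the genome, 422 of 2581 C/EBPdelta peaks of day 0 (16.4%) lacked C/EBPbeta at every time.

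**Figure D3:**
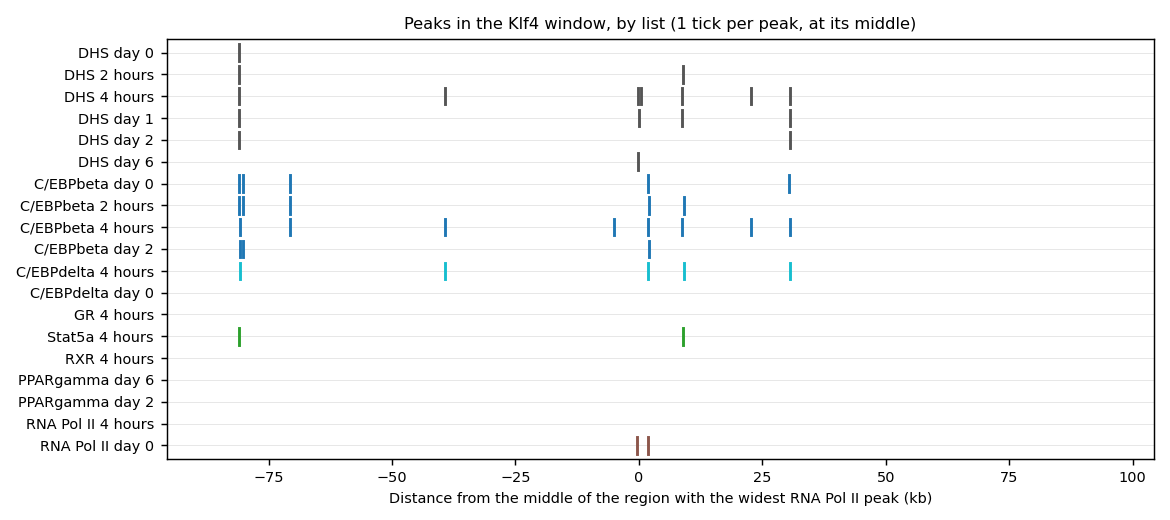
Map of the 47 peaks of the Klf4 window, with 1 row per list, a tick at the middle of each peak and the distance in kb from the region with the widest RNA Pol II peak. GR, RXR and PPARgamma have no tick, and the 2 Stat5a ticks stand at -80.7 kb and 8.8 kb with C/EBPbeta and C/EBPdelta.

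The Klf4 window held 2 Stat5a peaks and 0 of GR, RXR and PPARgamma, while the Klf5 window held 6 Stat5a, 3 GR and 2 RXR peaks, and PPARgamma had 0 peaks on day 6 and 1 on day 2. These lists are short, and 76.2% of tiles of 200 kb held no GR peak and 85.1% no RXR peak, so their absence from the Klf4 window is the common case. The same holds for PPARgamma, with no peak in 79.7% of these tiles on day 2 and 71.2% on day 6. At 600 kb, 36.7% of tiles held at least 1 PPARgamma peak on day 2 and 54.2% held none on day 6. Of tiles of 600 kb, 13.5% held at least the 3 GR peaks of the Klf5 window, 12.3% at least its 2 RXR peaks and 8.17% at least its 6 Stat5a peaks, and 16.4% of tiles of 200 kb held at least the 2 Stat5a peaks of the Klf4 window. Regions with 3 or more of the 5 factors of 4 hours (both C/EBPs, RXR, Stat5a and GR) numbered 2 of 8 in the Klf4 window and 4 of 23 in the Klf5 window, against 15.7% of 35341 over the genome. Regions with all 5 numbered 0 and 2, against 2.65%. Of the factor regions, 5 of 8 and 9 of 23 were in the 4 hours DHS list, against 40.9% of 35106. At equal list length by width, regions with 3 or more factors numbered 0 and 2, and factor regions in the DHS list 1 and 1. That length was set by the RXR list, with 2076 peaks. With factors of every time counted, factor regions with no DHS peak at any time numbered 3 of 8 in the Klf4 window and 15 of 26 in the Klf5 window, against 52.3% of 47766.

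The region at 324.4 kb of the Klf5 window (chr14:100022967-100024840) was the first of the pair with all 5 factors. It ranked 12th by width among the 938 such regions of the genome and had a peak in 13 of the 19 lists. Its GR peak (1637 bp) was 7th widest of 4080, its RXR peak (1101 bp) 8th of 2076, its C/EBPbeta peak of 4 hours (1653 bp) 28th of 29957 and its Stat5a peak (1187 bp) 38th of 6977. C/EBPbeta was already there on day 0, with no DHS peak of that day, as at 59.7% of the 938 regions. That peak (679 bp) sat at one edge, its middle 440 bp from the middle of the 4 hours peak, and the day 2 peak (511 bp) lay 392 bp to the same side. At 2 hours the peak was 1331 bp wide and its middle lay 90 bp away, so the wider span was present at 2 hours and 4 hours. C/EBPdelta had a pair of peaks there at 4 hours, 36 bp apart. They were 670 bp (2907th widest of 18327) and 765 bp (1490th) wide. All these ranks are over whole lists, and peak widths were not compared among the 938 regions. The RNA Pol II peak of day 0 (559 bp) lay 423 bp to the side where the day 0 C/EBPbeta peak stood, and 3.84% of the 938 regions held RNA Pol II of day 0. Open chromatin was listed at 2 hours (1323 bp, 73rd widest of 9055), 4 hours (1356 bp), day 1 (1171 bp) and day 2 (1180 bp).

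The other region with all 5 factors, at 445.2 kb (chr14:100143883-100145524), differed from it before induction. It had a DHS peak on day 0 (640 bp) and no C/EBPbeta, a combination found at 7 of the 938 regions (0.746%). That combination was picked out after its values were seen. C/EBPbeta was 1086 bp wide at 2 hours, 1591 bp at 4 hours and 495 bp on day 2, when its middle lay at -397 bp from that of 4 hours. C/EBPdelta (1424 bp) was 13th widest of 18327 and Stat5a (1430 bp) 7th of 6977. GR (996 bp, 393rd of 4080) and RXR (612 bp, 354th of 2076) were narrower. Both lay to the side of the day 2 C/EBPbeta peak, at -210 bp and -292 bp. An RNA Pol II peak of 4 hours (251 bp, the shortest width in its list) lay at the opposite edge, 511 bp from the middle of C/EBPbeta. Of the 938 regions, 7.36% held RNA Pol II of 4 hours. After day 0, DHS was listed at 2 hours (980 bp), 4 hours (1055 bp), day 1 (942 bp) and day 2 (1055 bp), and not on day 6. The gap between the 2 regions was 119.1 kb, against a median of 236 kb from a region with all 5 factors to the nearest other one on its chromosome, and 37.6% of the 938 had another within that distance. With every peak set to 200 bp, the factors of 1 of the 2 regions no longer joined.

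Neither of these regions held PPARgamma, as at 68.8% of the 938. The lone PPARgamma peak (873 bp, day 2) lay between them at 377.4 kb (chr14:100076452-100077324). C/EBPbeta was there on day 2 (709 bp) and at 4 hours (418 bp), and C/EBPdelta at 4 hours (544 bp). The region was in the DHS lists of day 1 and day 2 and in no earlier one. Over the genome, 68.6% of 3168 PPARgamma peaks of day 2 overlapped C/EBPbeta of day 2, and 33.1% had no PPARgamma peak on day 6.

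**Figure D4:**
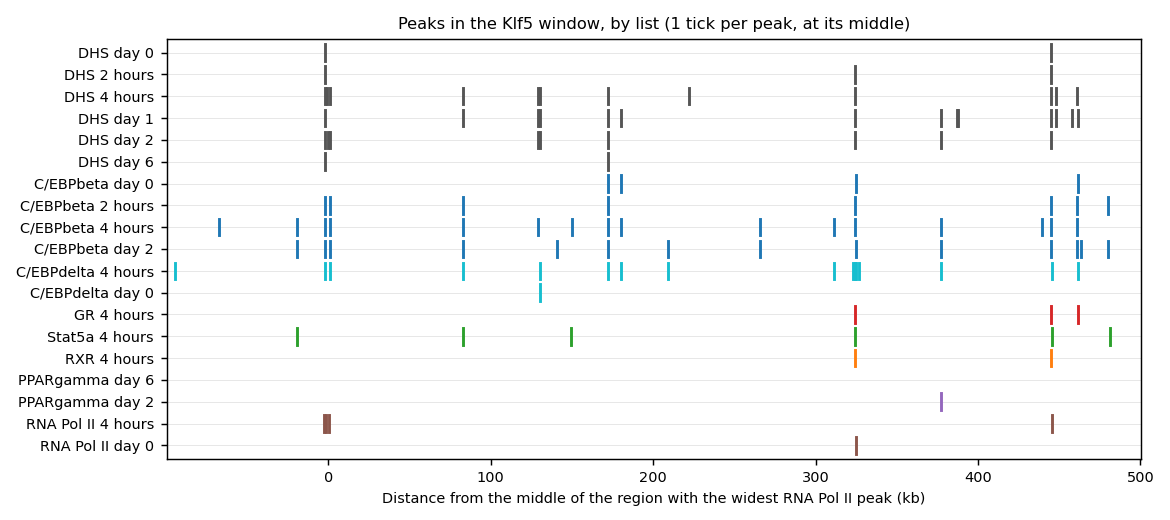
Map of the 118 peaks of the Klf5 window, with 1 row per list, a tick at the middle of each peak and the distance in kb from the region with the widest RNA Pol II peak. GR and RXR ticks line up with both C/EBPs and Stat5a at 324.4 kb and 445.2 kb, and a further GR tick stands at 461.2 kb.

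The remaining regions with 3 factors held different partners of the C/EBPs. In the Klf5 window, the region at 83.0 kb (chr14:99782147-99782911) had C/EBPbeta, C/EBPdelta and Stat5a, and the region at 461.2 kb (chr14:100160365-100161180) had C/EBPbeta, C/EBPdelta and GR. Both were in the DHS lists of 4 hours and day 1. Both Klf4 regions with 3 factors had Stat5a beside the C/EBPs. At -80.7 kb (chr4:55464135-55465783), C/EBPbeta was listed as 2 peaks 11 bp apart on day 0, 2 peaks 20 bp apart at 2 hours, 1 peak of 1586 bp at 4 hours (41st widest of 29957) and 2 peaks 153 bp apart on day 2. The DHS peaks of all 5 times listed there (616 bp on day 0, 941 bp at 2 hours, 847 bp at 4 hours, 905 bp on day 1 and 827 bp on day 2) had their middles on one side, from -276 bp to -336 bp from the middle of that peak. Stat5a (-196 bp) and C/EBPdelta (-167 bp) lay on the same side.

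At 8.8 kb (chr4:55553738-55555024), the region was in no list of day 0. C/EBPbeta was 597 bp wide at 2 hours and 1287 bp at 4 hours (210th of 29957), with its 2 hours middle 305 bp from that of 4 hours, close to C/EBPdelta at 342 bp. Its DHS peak was 833 bp at 2 hours, 1230 bp at 4 hours and 519 bp on day 1, and no factor or DHS peak was listed there on day 2 or day 6. A further Klf4 region, at 30.5 kb (chr4:55575876-55576451), had C/EBPbeta at 4 hours (501 bp) and on day 0 (466 bp) but not at 2 hours, and was in the DHS lists of 4 hours, day 1 and day 2. The Klf5 region at 172.0 kb (chr14:99871099-99871931) had both C/EBPs and none of the other factors, and was in the DHS lists of 4 hours, day 1, day 2 and day 6. Its C/EBPbeta peak was 549 bp wide on day 0, 640 bp at 2 hours, 833 bp at 4 hours and 711 bp on day 2.

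**Figure D5:**
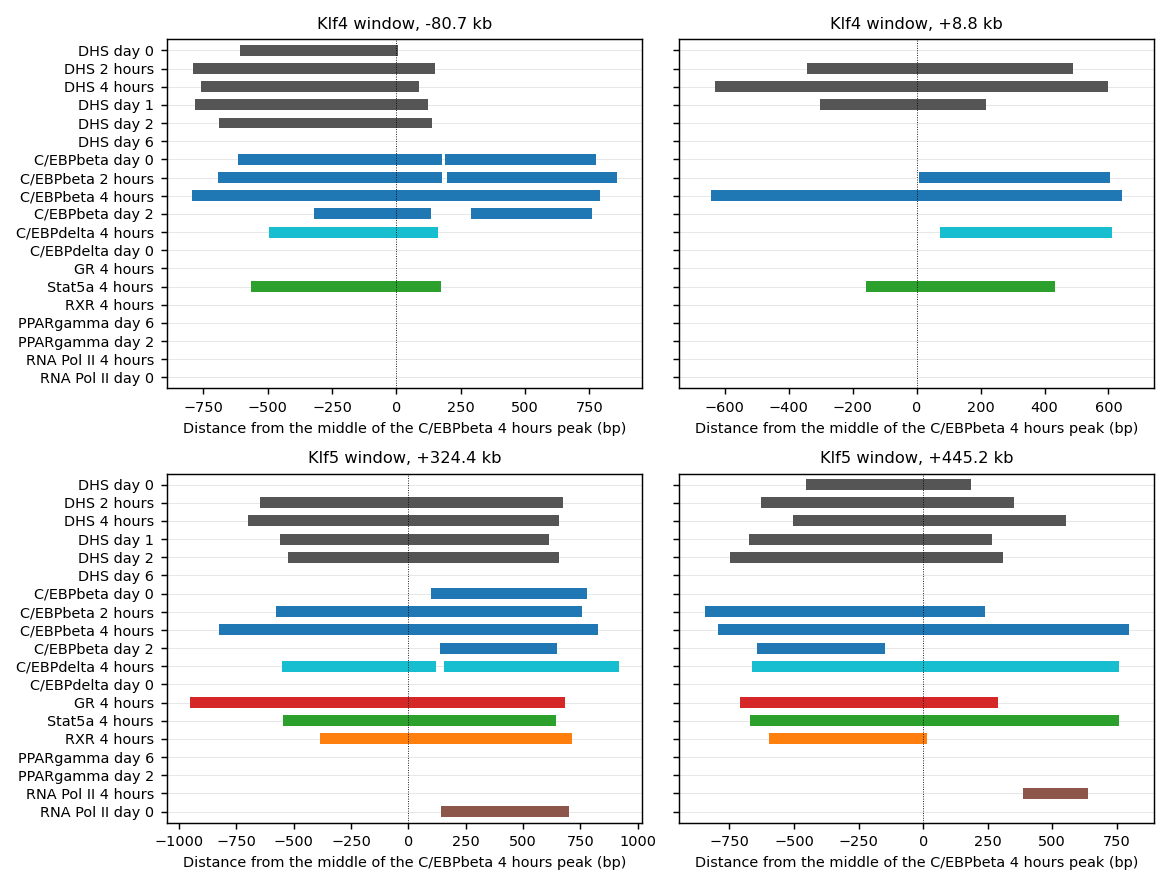
Peaks drawn to scale in the 2 Klf4 regions with 3 factors (top) and the 2 Klf5 regions with all 5 factors (bottom), with 1 row per list and the distance in bp from the middle of the C/EBPbeta peak of 4 hours. At 324.4 kb the day 0 and day 2 C/EBPbeta peaks sit at one edge of the 4 hours peak, and at 445.2 kb DHS is present on day 0 without C/EBPbeta.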

How the data were processed

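The 19 lists (6 DHS-seq, 13 ChIP-seq) were deposited by the authors with no score or read count, from 1 library per group. An input sample has no list here and was not analysed. Below its browser track line, every deposited file holds chromosome, start and end alone, and the submitters' processing notes name mm9 as the build. The peak caller, its threshold and the read depth are not given in the sources used here. No depth per sample or interval from it can therefore be stated. Width is used to describe peaks, to rank them within a list and to shorten lists. The wider peaks of a list are those down to about its median width. Widths set side by side between lists were not corrected for depth or threshold. Positions are counted from 1.

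Peaks were merged when they overlapped by at least 1 bp. Each comparison merged only its own lists over the whole genome, and regions touching a window were then counted beside the share over all regions. Time patterns of C/EBPbeta, first DHS listings and factor regions without DHS were counted on the merge of all 19 lists, and their genome shares, like those of tiles with as many peaks, were added after the values were seen. Tiles are consecutive genome stretches of the window's length with at least 1 peak of any list. No test was run, since 1 library per group allows none. The calculation was tested on simulated data with planted regions, which lay far apart and held peaks with a shared middle. Chains of offset peaks were not tried there, nor were the time patterns, first listings or tile counts. Promoter sequences are RefSeq's (GRCm38.p6). Python 3.11.15 and Matplotlib 3.10.9 were used. The rule for named regions took those with all 5 factors, all 6 DHS lists, PPARgamma or RNA Pol II, and the 5 in the most lists of each window. The Klf5 regions at 83.0 kb and 130.3 kb fall outside it and were chosen after their values were seen. The windows, the comparisons and the alternatives were chosen with earlier results of these data known.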

Additional observations from a re-analysis of the deposited data

How the results depend on the processing

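Of 110 alternative counts, 81 stayed within 1.5 times the reported count and 29 did not. Those that stayed include reported counts of 0, which shorter lists could not lower, such as PPARgamma regions and regions with all 5 factors in the Klf4 window. With every list shortened by width to the length of the shortest in its comparison, gained DHS regions were 1 (Klf4) and 3 (Klf5), DHS regions of 4 hours not on day 6 were 2 and 5, gained C/EBPbeta regions in the Klf5 window 6, C/EBPbeta regions of 4 hours not on day 2 in the Klf5 window 2, gained C/EBPdelta regions 0 and 3, regions with 3 or more factors 0 and 2, and factor regions in the 4 hours DHS list 1 and 1. With each list limited to its wider peaks, gained DHS regions in the Klf4 window were 1, DHS regions of 4 hours not on day 6 there 2, gained C/EBPbeta regions 1 and 5, C/EBPbeta regions of 4 hours not on day 2 in the Klf4 window 3, gained C/EBPdelta regions there 2, regions with 3 or more factors in the Klf5 window 2, factor regions in the 4 hours DHS list 2 and 5, gained RNA Pol II regions in the Klf5 window 1 and lost ones in the Klf4 window 1. Both alternatives leave fewer peaks by construction, and no genome share is given at either setting. With peaks set to 200 bp, regions with 3 or more factors in the Klf4 window were 1 and regions with all 5 in the Klf5 window 1, since narrower peaks overlap less. Windows widened by 100 kb on each side gave the Klf4 window 11 DHS regions of 4 hours not on day 6, 11 gained C/EBPdelta regions, 11 factor regions in the 4 hours DHS list and 1 gained RNA Pol II region, since they hold more regions. Joining peaks up to 500 bp apart moved no count beyond 1.5 times. No paired analysis was possible because each group held 1 library.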

Other observations

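Of the 32 regions of the Klf5 window, 15 were in a single list, 8 in 2 to 4 lists and 9 in 5 or more. Of the 9 regions of the Klf4 window, 1 was in a single list, 4 were in 2 to 4 and 4 in 5 or more. Over the genome, 37.3% of 77867 regions were in a single list, 33.0% in 2 to 4 and 29.7% in 5 or more. The longest stretch with no peak in any list was 81.4 kb in the Klf5 window, just beyond the RNA Pol II cluster, against a median gap between regions of 9.30 kb there and 8.10 kb in the Klf4 window. Of the 6 Stat5a peaks of the Klf5 window, 4 overlapped C/EBPbeta of 4 hours, and both Klf4 ones did, against 64.8% of 6977 over the genome.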
